A study of Rattus norvegicus with 24 samples.

Results

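Bone of rats aged 10, 18 and 24 months was set against bone of rats aged 4 months, using the 4 bone arrays of a series of 24. The arrays were chosen by their labelled tissue and age. All rats were untreated male Sprague-Dawley animals, an outbred laboratory strain, and the groups were the 3 later ages with 1 array each and 4 months with 1 array. Each array measured an equal mixture of RNA from 10 rats, and at each age the same rats gave the other tissues (hypothalamus, pituitary, spleen lymphocyte, liver and kidney), whose 20 arrays served for comparison. The sources used here do not say which bone was taken or whether its marrow was removed. There was no second pool at any age. What belongs to 4 months of age and what belongs to that pool or array therefore cannot be told apart. The p-values within bone measure only the spread among its 3 later pools, which also differ in age. Those of bone against the other tissues measure the spread among the later pools of all 6 tissues.

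A long bone lengthens at its growth plate, a layer of cartilage whose cells divide, enlarge and are replaced by bone. Enlarged cartilage cells make type X collagen, while the cartilage matrix holds type II, IX and XI collagens and the proteoglycan aggrecan. Osteoblasts lay down a matrix of type I collagen, which is modified in the endoplasmic reticulum and crosslinked outside the cell, and then mineralise it. Some osteoblasts become osteocytes enclosed in the matrix, and osteoclasts, which descend from blood-forming cells, resorb it. The marrow inside holds the precursors of red cells, granulocytes and platelets beside fat cells. In rats the growth plate slows after sexual maturity and does not close promptly as it does in people.

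The signal of a probe set, a group of short probes for a transcript, is a fluorescence intensity on a linear scale, and every array had been scaled to the same trimmed mean. The bone label was checked against defining genes. Bglap (osteocalcin, a bone matrix protein) averaged 12533 over the bone arrays and 6.06 over the other tissues, and Ibsp (bone sialoprotein) 5381 over the bone arrays and 19.0 over the others. The 18-month bone array stood apart from the other bone arrays at low signals, with a 5th percentile of 33.5 against 9.91 to 12.0. Summed markers of neurons, kidney tubules and the pituitary were also highest there. The log2 ratio of 3 prime to 5 prime probe sets of Actb, a sign of RNA integrity, was 0.48, 1.12 and 1.31 at the later ages and 1.56 at 4 months. That of Gapdh was 0.30, 0.44 and 0.38 at the later ages and 0.69 at 4 months. Both ratios were highest at 4 months, and their part in the results was not tested.

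Of 10412 genes on the array, 8488 had a mean bone signal of at least 100 and were compared on log2 signals, with values under 100 set to 100. Genes at least 2-fold lower than at 4 months at all 3 later ages numbered 313 (3.69% of genes tested), and 185 (2.18%) were at least 2-fold higher at all 3. By any amount, 2568 genes (30.3%) were lower and 2750 (32.4%) higher at all 3 later ages. These counts carry no test, because the 3 differences share the 4-month array. Named only for their place at the 2-fold limit, after their values were seen, Phtf2 lay just inside with a smallest log2 difference of -1.0022 and Prkcq with 1.0019. Just outside lay Gpx3 with -0.9997 and Bex4 with 0.9996. Against 4 months, 342 genes were 2-fold higher and 517 lower at 10 months, 1059 and 736 at 18 months, and 420 and 600 at 24 months. Without the 18-month array, 254 genes were 2-fold higher and 408 lower at both remaining ages.

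A model across genes (limma, with moderated variances and Benjamini-Hochberg adjustment) gave an adjusted p under 0.05 to 87 genes higher at the later ages (1.02% of those tested) and 91 lower (1.07%). With each array centred on its median these counts were 1 and 9, a lower share of higher calls. Of the 87 higher and 91 lower genes called without that centring, 83 and 90 also passed the 2-fold limit at every later age. With the 10-, the 18- or the 24-month array left out, which leaves 1 residual degree of freedom, limma called 0 genes, with 1082, 1852 and 966 genes at an unadjusted p under 0.05, against 1502 with all arrays. A 2-fold difference at every later age is the description used below, with the adjusted p given beside the genes named. Of the 2-fold lower genes, 56 had another probe set with signal, and for 43 it was lower at all 3 ages. Of the 2-fold higher genes, 19 had another, and for 12 it was higher at all 3.

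Runx2, the transcription factor that directs osteoblast differentiation, binds a core motif spelled TGTGGT, and the promoter of the osteocalcin gene is its textbook target. The 250 bases upstream of the start of Bglap and of 3 osteoblast genes that were 2-fold lower at all later ages are shown, so that the regulatory sequence can be read beside the values that follow. Sparc encodes osteonectin, Mmp13 collagenase 3 and Alpl tissue-nonspecific alkaline phosphatase. All 4 were picked after the matches were known, Alpl as a gene without a match, and Mmp13 lies outside the rule for named genes. Sequences are from RefSeq, build GRCr8, 5′ to 3′ on the strand of the gene, and capitals mark the motif, which here reads ACCACA because each match lies on the opposite strand.
Bglap, chr2:176137319-176137568, minus strand: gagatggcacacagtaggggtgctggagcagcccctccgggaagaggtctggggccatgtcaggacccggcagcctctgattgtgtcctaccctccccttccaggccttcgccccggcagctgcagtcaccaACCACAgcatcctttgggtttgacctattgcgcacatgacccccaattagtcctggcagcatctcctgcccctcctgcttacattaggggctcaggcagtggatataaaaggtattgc
Sparc, chr10:40038817-40039066, minus strand: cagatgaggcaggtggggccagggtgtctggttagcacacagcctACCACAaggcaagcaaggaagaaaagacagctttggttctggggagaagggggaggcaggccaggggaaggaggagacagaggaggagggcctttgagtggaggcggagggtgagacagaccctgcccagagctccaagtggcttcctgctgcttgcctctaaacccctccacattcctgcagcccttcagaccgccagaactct
Mmp13, chr8:12782579-12782828, plus strand: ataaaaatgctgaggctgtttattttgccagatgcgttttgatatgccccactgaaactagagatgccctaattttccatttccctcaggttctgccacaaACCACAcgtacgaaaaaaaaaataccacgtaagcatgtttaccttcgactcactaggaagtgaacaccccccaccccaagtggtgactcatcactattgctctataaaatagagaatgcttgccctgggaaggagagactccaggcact
Alpl, chr5:155289786-155290035, minus strand: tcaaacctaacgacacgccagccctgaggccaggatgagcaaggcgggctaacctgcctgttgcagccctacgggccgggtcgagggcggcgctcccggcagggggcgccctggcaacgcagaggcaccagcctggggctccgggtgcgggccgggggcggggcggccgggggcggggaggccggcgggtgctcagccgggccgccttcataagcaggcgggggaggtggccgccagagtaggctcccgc
The matches began 118, 205 and 149 bases upstream of the start of Bglap, Sparc and Mmp13. Of the 33469 rat promoters in the RefSeq table, 14.5% held the motif on either strand of the same window, and of the 7805 promoters of genes tested in bone 11.3% did. Among the 13 osteoblast and collagen genes with a promoter there that were 2-fold lower at all later ages, 2 held it, a share of 15.4%. It was present in 31 of 267 promoters of all 2-fold lower genes (11.6%) and in 36 of 170 of the 2-fold higher genes (21.2%). A match to these letters is a description and not a binding site.

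Cartilage genes had the lowest median of the 40 gene lists described. Of 14 cartilage markers, all of them tested, 9 were 2-fold lower at all 3 later ages, against 3.69% of all genes tested. By any amount 12 were lower, against 30.3% of all genes tested. Their median log2 difference was -2.61, against 0.05 over all genes tested, and it deepened with age, from -1.74 at 10 months to -2.50 at 18 and -3.41 at 24 months. In bulk tissue, fewer cells of a type and less RNA per cell cannot be told apart, here and for every group below. Signals of 9 of the 14 were lower at each age than at the age before it, from 4 months on. Over all genes tested, 9.46% were lower at 18 than at 10 months and lower again at 24, whatever their 4-month signal.

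Col10a1, the type X collagen of enlarged cartilage cells, had signals of 14450.2, 3544, 805 and 287 at 4, 10, 18 and 24 months. Col9a1, which coats type II collagen fibrils, had 4233, 882, 294 and 16.3 at the same ages, the last under the floor of 100. Hapln1, the link protein that ties aggrecan to hyaluronan, had 3886, 685, 239.6 and 172. In all of them the signal at 4 months lay far above every later array, and the 24-month array was lowest. The later ages also lay far apart from each other, and the differences did not pass limma. The log2 difference of Col10a1 was -3.95 ± 1.20 (SE, adjusted p = 0.152), that of Col9a1 -3.84 ± 1.05 (adjusted p = 0.12) and that of Hapln1 -3.68 ± 0.72 (adjusted p = 0.0584). Cnmd, chondromodulin, an inhibitor of vessel growth made by cartilage, was steadier, with 1844, 339.8, 293 and 182 and a difference of -2.81 ± 0.41 (adjusted p = 0.034).

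Acan, aggrecan itself, had 3041, 758, 671 and 342, and Col11a2, a chain of type XI collagen, 3451, 495, 646 and 203 at 4, 10, 18 and 24 months. Col2a1, the main collagen of cartilage, needs care, because its probe sets disagreed. The probe set that stood for the gene, being at 100 or more on more of the 24 arrays than the other, read 195, 209.8, 143 and 214 at the 4 ages. The other read 16543, 8116, 2163 and 655 and was lower at every later age, as most of the list was. Cytl1, a cytokine-like protein of cartilage cells, was higher with 531, 1458 and 920.2 at the later ages and 80.3 at 4 months. Its log2 difference, with the 4-month signal at the floor, was 3.16 ± 0.53 (SE, adjusted p = 0.0465).

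**Figure D1:**
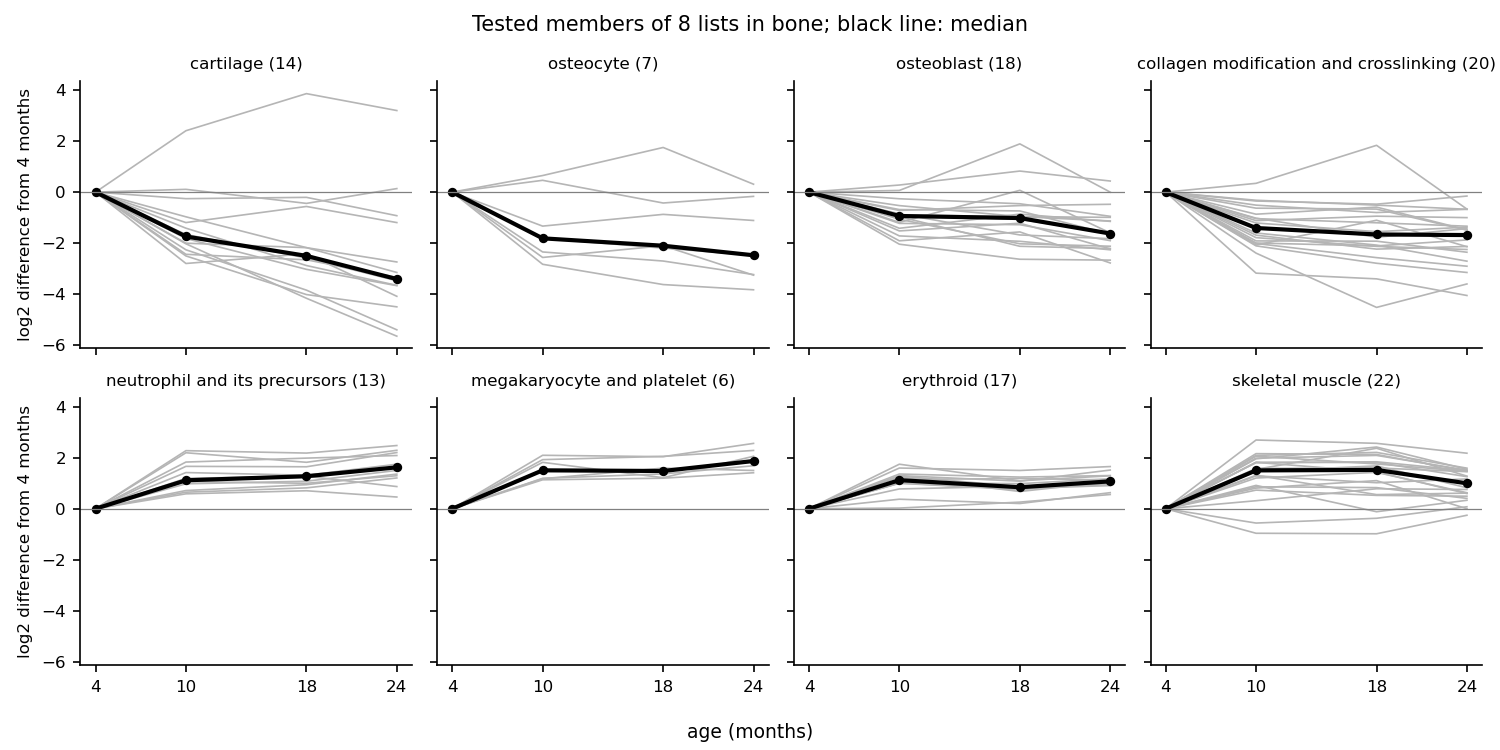
Log2 difference from 4 months in bone (vertical axis) against age in months (horizontal axis), for the tested members of 8 gene lists (grey lines, number in parentheses) with their median (black). The cartilage median reached -3.41 at 24 months, while all 6 megakaryocyte and platelet members lay above 0 at each later age.

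Osteoblast genes were lower as a group, but unevenly. Of 18 tested of 19 on the array, 15 were lower at all 3 later ages (30.3% of all genes tested were). At least 2-fold lower were 6 (3.69% of all genes tested), with a median log2 difference of -1.17 over the list. Limma called 2 of them. Alpl, the enzyme that frees phosphate for mineral and whose promoter is printed above, had 1517, 368, 244 and 239 at 4, 10, 18 and 24 months, a difference of -2.45 ± 0.36 (SE, adjusted p = 0.034). Sparc, a calcium- and collagen-binding matrix protein, had 18146, 5518, 4764 and 3780.2, a difference of -1.97 ± 0.27 (adjusted p = 0.034). Bglap, although it is the classical late osteoblast gene, missed the 2-fold limit at 10 months with 21439, 11407, 10211 and 7074 at the 4 ages and a difference of -1.19 ± 0.35 (adjusted p = 0.14).

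The chains of type I collagen, the bulk of bone protein, differed less. Col1a1 averaged 11630.1 ± 2704 at the later ages (SD, n = 3) and 16758 at 4 months, a log2 difference of -0.56 ± 0.35 (SE, adjusted p = 0.501). Col1a2 averaged 12853 ± 2863 at the later ages and 23177 at 4 months, a difference of -0.87 ± 0.35 (adjusted p = 0.268). Neither passed the test. Ibsp had 10022, 5550.1, 3127 and 2826 and Spp1, osteopontin, 19085, 9796, 4374 and 4116 at 4, 10, 18 and 24 months, so both were lowest at 24 months. Mmp13, the collagenase of enlarged cartilage cells and osteoblasts, chosen after its values were seen, had 9355, 4476, 2295 and 2147. Smpd3, a sphingomyelinase needed for mineralisation in mice, had 2065, 549, 699.6 and 301, and Cdh11, osteoblast cadherin, 3192, 1364, 1316 and 853. Pth1r, the receptor of parathyroid hormone, had 313, 458 and 349 at the later ages and 258 at 4 months (adjusted p = 0.551) on the probe set that stood for it, but its brighter probe set in bone read 475, 287 and 285 at the later ages and 2475 at 4 months.

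Osteocyte genes had a deeper median of -2.16 over 7 tested of 8 on the array. Of the 7, 4 were 2-fold lower at all 3 later ages, against 3.69% of all genes tested, and 3 passed limma. On the mean over each gene's probe sets the osteocyte median was -1.34 and the osteoblast median -1.19. Phex, an endopeptidase whose loss causes phosphate wasting, had signals of 2835, 398, 229 and 199 at 4, 10, 18 and 24 months. The later arrays did not come near the 4-month value, and the difference was -3.43 ± 0.43 (SE, adjusted p = 0.0303). Mepe, a phosphoglycoprotein of osteocytes that inhibits mineralisation, had 5604, 1595, 1222 and 1006, a difference of -2.16 ± 0.27 (adjusted p = 0.0303). Ptprz1, a receptor phosphatase, had 1706, 335, 262 and 181 (adjusted p = 0.034). Of the osteocyte genes named here only Ptprz1 has 2 probe sets, and these values are those of the 1 that stood for it. Pdpn, podoplanin, which young osteocytes carry as they form processes, had 1554, 263, 362 and 162 (adjusted p = 0.0525). Fgf23, the phosphate-lowering hormone that osteocytes secrete, stayed low with 157, 337 and 124 at the later ages and 82.7 at 4 months (adjusted p = 0.552).

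Genes that mature and crosslink collagen were lower nearly throughout. Of 20 genes tested, 13 were 2-fold lower at all 3 later ages (3.69% of all genes tested were). By any amount 19 were lower (30.3%), and 5 passed limma, with a median of -1.59. Lox, lysyl oxidase, which starts the crosslinks between collagen chains, had 2617, 289, 247 and 157 at 4, 10, 18 and 24 months. Its difference was -3.55 ± 0.41 (SE, adjusted p = 0.0303), and its other probe set read 985, 107, 68.7 and 39.9. Serpinh1, the collagen chaperone Hsp47, had 9783, 2268, 1413 and 1099.9, a difference of -2.68 ± 0.38 (adjusted p = 0.034).

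Other steps of the path varied more. Fkbp10, a prolyl isomerase of the endoplasmic reticulum, had 2651, 656, 446 and 353 at the 4 ages (adjusted p = 0.034). P4ha1, the catalytic subunit of prolyl 4-hydroxylase, had 1534, 407, 404 and 299 (adjusted p = 0.034). Its partner P4hb, which also acts as a general disulfide isomerase, had 6257, 4915, 4511 and 5623 and a difference of -0.32 (adjusted p = 0.526). Pcolce, an enhancer of procollagen cleavage, had 4819.8, 918, 209 and 397, with its lowest value at 18 months (adjusted p = 0.0645).

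**Figure D2:**
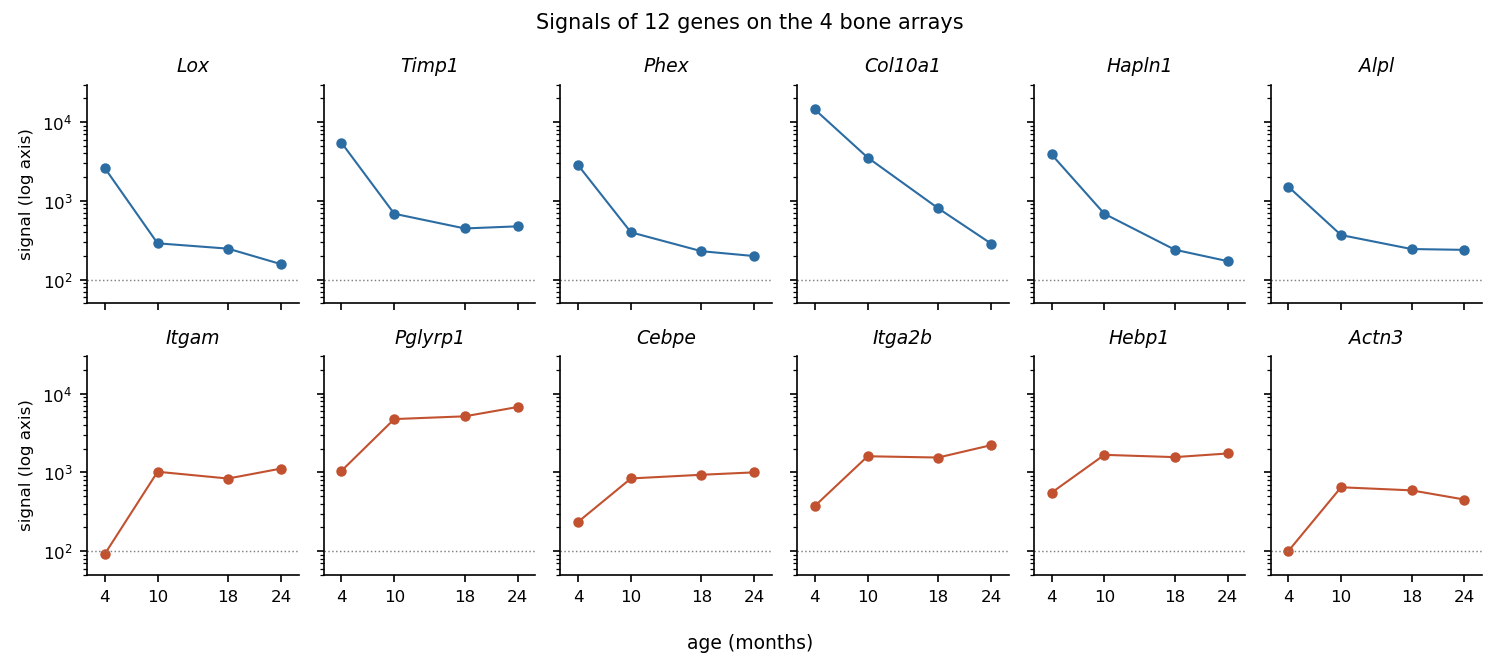
Signals of 12 named genes on the 4 bone arrays (vertical axis, log scale) against age in months (horizontal axis), each point 1 pool of 10 rats, with the floor of 100 dotted. The 6 genes of the upper row had their highest signal at 4 months, and the 6 of the lower row their lowest.

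Across the collagens as a family, 12 of 22 tested of 24 on the array were 2-fold lower at all 3 later ages. That share was 3.69% over all genes tested. Limma called 4 of the 22, and the median was -1.53. Col5a1, which limits the width of type I fibrils, had 5494, 1356, 1054 and 681 at 4, 10, 18 and 24 months, a difference of -2.47 ± 0.37 (SE, adjusted p = 0.0345). Col6a2, of the beaded filaments around cells, had 1613, 339, 219 and 217 (adjusted p = 0.034), while a dimmer probe set read 219, 87.3, 230.3 and 28.8. Col3a1, the fibrillar collagen of soft connective tissue and vessels, had 6465, 2198, 1479.8 and 1167 (adjusted p = 0.0456). No collagen was 2-fold higher at all later ages, and Col7a1, the anchoring fibril collagen of skin, had 196, 143 and 176 at the later ages against 71.3 at 4 months without passing the test (adjusted p = 0.456).

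Of 40 noncollagen matrix genes tested of 46 on the array, 14 were 2-fold lower and 1 was 2-fold higher at all later ages. The shares over all genes tested were 3.69% and 2.18%. Limma called 4 of the 40, all lower. Tnc, tenascin C, had 4482, 794, 662 and 429.9 at the 4 ages, a difference of -2.88 ± 0.35 (SE, adjusted p = 0.0303). Dcn, decorin, a small proteoglycan that binds collagen fibrils, had 7872, 1986, 1556 and 1171 (adjusted p = 0.0303). Olfml3, a secreted olfactomedin-like protein, had 2163, 488, 537 and 415 (adjusted p = 0.0303). The exception was Eln, elastin, with 312, 344 and 389 at the later ages and 141 at 4 months (adjusted p = 0.124).

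Matrix proteases and their inhibitors were mostly lower, with a neutrophil enzyme higher. Of 21 tested of 26 on the array, 10 were 2-fold lower at all later ages, against 3.69% of all genes tested. Limma called 5 of the 21 lower. Mmp14, the membrane-bound collagenase that also activates Mmp2, had 6059, 1136, 960.4 and 659 at 4, 10, 18 and 24 months, a difference of -2.76 ± 0.31 (SE, adjusted p = 0.0303). Mmp2, gelatinase A, had 4074, 849.7, 847 and 606 (adjusted p = 0.0303), although a dimmer probe set of it read 191, 299, 442 and 299. Timp1, an inhibitor of these enzymes and a growth factor for red cell precursors, had 5481, 686, 446 and 475, a difference of -3.38 ± 0.28 (adjusted p = 0.0303). Mmp8, the collagenase stored in neutrophil granules, was higher with 3424, 2642 and 3662 at the later ages against 747 at 4 months, a difference of 2.10 ± 0.23 (adjusted p = 0.0303).

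Osteoclast markers were few on this array, 7 genes. Of these, 3 were 2-fold lower at all later ages, against 3.69% of all genes tested. By any amount, 5 were lower and 2 higher at all 3 later ages, against 30.3% and 32.4% of all genes tested. Acp5, tartrate-resistant acid phosphatase, had 15581, 6899, 2939.9 and 3112 at 4, 10, 18 and 24 months (adjusted p = 0.0953), and Ctsk, cathepsin K, which digests bone collagen, had 15454, 7054, 4216 and 4193 (adjusted p = 0.068). Mmp9, gelatinase B, had 6877, 2791, 2026 and 2737, a difference of -1.46 ± 0.24 (SE, adjusted p = 0.0425), though neutrophils also store it. Car2, carbonic anhydrase 2, which acidifies the resorption pit and is abundant in red cell precursors too, was higher with 10245, 9021 and 11911 at the later ages and 4881 at 4 months (adjusted p = 0.0896). The other higher member was Calcr, the calcitonin receptor, which was not 2-fold at every later age and did not pass limma. Csf1r, the receptor through which macrophage colony-stimulating factor forms osteoclasts and macrophages, had 1799.7, 1429 and 1617 at the later ages and 4070.3 at 4 months (adjusted p = 0.034). The complement subunits that macrophages make, C1qa (2776, 3997, 2611 and 3071) and C1qb (1378, 1867, 1659 and 1719.6 at 4, 10, 18 and 24 months), did not pass the test.

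Genes of the general secretory pathway differed less. Of 63 tested, 48 were lower at all 3 later ages, against 30.3% of all genes tested. Of the 63, 6 reached 2-fold (3.69% of all genes tested), and the median was -0.49. The 2-fold members included Rcn3, a calcium-binding protein of the endoplasmic reticulum, with 2766, 511, 624 and 466 at the 4 ages (adjusted p = 0.0303). Sec24d, a coat protein for large cargo whose loss impairs procollagen export in zebrafish, had 1881, 649.7, 549 and 498 (adjusted p = 0.034). Xbp1, the transcription factor that enlarges the secretory apparatus, had 2821, 2616, 2633 and 2588 and a difference of -0.11 (adjusted p = 0.777).

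Several signals act on the growth plate and on osteoblasts, and their genes were lower only in part. Of 35 TGF-beta and BMP genes tested of 41 on the array, 8 were 2-fold lower at all later ages and 2 passed limma. Over all genes tested, 3.69% were 2-fold lower in this way. The ligand Tgfb1 had 857, 828, 838 and 974 at 4, 10, 18 and 24 months (adjusted p = 0.944), while Tgfb3 had 537, 117, 115 and 132 (adjusted p = 0.0563). The BMP antagonist Grem1 had 566, 167, 129 and 128 (adjusted p = 0.0645). Id3, a direct target of BMP signals, had 4969, 1282, 1014 and 892, a difference of -2.24 ± 0.24 (SE, adjusted p = 0.0303), and Bambi, a decoy receptor, had 1225, 378, 275 and 270.1 (adjusted p = 0.0412).

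Limma called 0 of 25 Wnt genes tested (31 on the array), with 1502 genes of the array at an unadjusted p under 0.05. Of the 25, 4 were 2-fold lower at all later ages, against 3.69% of all genes tested. They included the secreted antagonist Wif1 (1562, 688, 398 and 445 at 4, 10, 18 and 24 months) and Wnt5b, a noncanonical ligand made by cartilage cells, which was at least 3.06-fold lower, with 35.4, 46.0 and 21.8 at the later ages, all under the floor, and 306 at 4 months. Of 17 growth hormone and insulin-like growth factor genes tested of 24 on the array, 2 were 2-fold lower at all later ages. That share was again 3.69% over all genes tested. Without the 24-month array the count was 4, and with all arrays 3 genes of the list passed limma. Igf1, which bone makes locally under growth hormone, averaged 761 ± 95.8 at the later ages (SD, n = 3) and 1681 at 4 months (adjusted p = 0.0556). Igfbp5, a binding protein stored in bone matrix, had 831, 1056 and 938 at the later ages against 2171 at 4 months (adjusted p = 0.0465). Htra1, a secreted protease that cleaves such binding proteins, had 518, 460.3 and 401 at the later ages against 2122 at 4 months (adjusted p = 0.0303). The receptor Fgfr1 had 926, 748 and 550.1 at the later ages and 2343 at 4 months (adjusted p = 0.0528). It was the only 2-fold lower gene of 12 tested in the hedgehog, parathyroid hormone and fibroblast growth factor list (2 without the 18-month array). Here too the share over all genes tested was 3.69%.

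Ranked by the smallest of their 3 differences, the 12 lowest genes mixed these groups with others. They included Mamdc2, a matrix protein, with 1106, 121, 31.7 and 39.1 at 4, 10, 18 and 24 months (adjusted p = 0.0303), and Cpz, a carboxypeptidase that binds Wnt proteins, with 1406, 151, 78.3 and 157 (adjusted p = 0.0303). Tpm2, beta-tropomyosin, had 888, 106, 107 and 104 (adjusted p = 0.031), although it is also a muscle protein and the muscle genes described below were higher. S1pr3, a receptor for sphingosine 1-phosphate, had 1160.2, 144, 54.9 and 36.0 (adjusted p = 0.0303). Ckb, brain-type creatine kinase, which osteoclasts and osteoblasts use, had 4954, 559, 701 and 595 (adjusted p = 0.0285). The others were S100a16, Ppic, Sdc2, Lox, Timp1, Phex and the mast cell protease Mcpt1l1. For genes whose later signals lay under the floor, such as Mamdc2, the log2 difference understates the difference in signal.

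The highest list medians were those of platelets and neutrophils, cells formed in the marrow. Skeletal muscle followed closely with 1.31. It lay above neutrophils after quantile normalization (1.30 against 1.24) and with a floor of 50 (1.43 against 1.33). With the other floors, scalings and probe set rules it lay below them. All 13 neutrophil genes tested were higher at all 3 later ages, against 32.4% of all genes tested. Of the 13, 7 were at least 2-fold higher (2.18% of all genes tested) and 5 passed limma, with a median log2 difference of 1.33. The summed signal of the list was 110470.4, 119642 and 157722 at 10, 18 and 24 months and 55125 at 4 months, and its part in the lower signals of bone genes was not tested. Cebpe, the transcription factor of late granulocyte maturation, had 839, 934 and 1003 at the later ages against 236 at 4 months, a difference of 1.97 ± 0.23 (SE, adjusted p = 0.0303). Padi4, which citrullinates histones in neutrophils, had 563, 527 and 647 at the later ages against 116 at 4 months (adjusted p = 0.0318). Lcn2, lipocalin 2 of the secondary granules, had 10179, 10067 and 14821 at the later ages against 3214 at 4 months (adjusted p = 0.0447). The most abundant members did not pass, S100a8 with 14053, 16467 and 21967 at the later ages against 8561 at 4 months and S100a9 with 24257, 27276 and 35707 at the later ages against 15462 at 4 months (adjusted p = 0.212 and 0.341).

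By the smallest of the 3 differences, Itgam, the integrin CD11b of granulocytes and monocytes, was the highest of all genes tested, with 1020.4, 837 and 1119 at the later ages against 91.8 at 4 months. Since the 4-month signal was under the floor, it was at least 8.37-fold higher at each later age, a log2 difference of 3.30 ± 0.27 (SE, adjusted p = 0.0303). Lilrb2, an inhibitory receptor of myeloid cells, had 878, 603 and 695 at the later ages against 84.9 at 4 months, at least 6.03-fold (adjusted p = 0.0303). Pglyrp1, a bactericidal protein of neutrophil granules, had 4759.9, 5159.5 and 6771 at the later ages against 1046 at 4 months (adjusted p = 0.0303). Among the 12 highest were also Pla2g2a, a secreted phospholipase, with 464, 1807, 1728 and 2398 and Tuba8, an alpha-tubulin, with 131, 608, 534 and 812 at 4, 10, 18 and 24 months. Monocyte and macrophage genes as a list were mixed, with 2 of 12 2-fold higher (Itgam and the monocyte chemokine receptor Ccr2), 1 lower (Csf1r) and a median of 0.19. Over all genes tested, 2.18% were 2-fold higher and 3.69% lower.

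Megakaryocytes and platelets were represented by 6 genes, and all 6 were 2-fold higher at every later age, against 2.18% of all genes tested. Their median was 1.56, and 3 passed limma. Itga2b, the platelet integrin chain CD41, had 1605, 1546 and 2218 at the later ages against 375 at 4 months, a difference of 2.24 ± 0.25 (SE, adjusted p = 0.0303). Ppbp, a platelet chemokine, had 3054, 3336 and 3923 at the later ages against 803 at 4 months (adjusted p = 0.0303), and Pf4, platelet factor 4, 10219, 11529 and 14398 at the later ages against 4469 at 4 months (adjusted p = 0.0617).

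Red cell genes were higher by a smaller amount. All 17 tested were higher at all 3 later ages, against 32.4% of all genes tested. Of the 17, 5 were at least 2-fold higher (2.18% of all genes tested) and 4 passed limma, with a median of 0.99. Without the 18-month array the 2-fold count was 10. Hebp1, a heme-binding protein, had 1673, 1565 and 1741 at the later ages against 553 at 4 months, a difference of 1.58 ± 0.18 (SE, adjusted p = 0.0303). Epor, the erythropoietin receptor, had 1693, 1455 and 1969 at the later ages against 687 at 4 months (adjusted p = 0.0465). Ank1, the ankyrin of the red cell skeleton, had 986, 907 and 945 at the later ages against 383 at 4 months (adjusted p = 0.0374), and Tal1, a transcription factor of blood-forming cells, 4631, 4752 and 4556 at the later ages against 2086 at 4 months (adjusted p = 0.0349). Hbb, beta-globin, was near the top of the scale at every age with 25468, 25931, 30498 and 37492 at 4, 10, 18 and 24 months, and its difference of 0.28 did not pass (adjusted p = 0.789) and was negative after quantile normalization.

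Genes of dividing cells did not reach the 2-fold limit. Of 45 cell cycle genes tested, 39 were higher by any amount at all 3 later ages, against 32.4% of all genes tested, with a median of 0.59, but 0 were 2-fold at every age. Limma called 0 of them (1502 genes of the array had an unadjusted p under 0.05). Mki67, the marker of cycling cells, had 4286, 4443 and 5743 at the later ages against 2476 at 4 months (adjusted p = 0.0916). Ccnd1, cyclin D1, which growth plate and osteoblast precursors use, had 281, 465 and 234 at the later ages against 721 at 4 months (adjusted p = 0.229).

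Mast cell genes split. Of 14 tested of 15 on the array, 5 were 2-fold lower at all later ages, against 3.69% of all genes tested. Limma called 4 of the 14, all lower. By any amount, 7 were lower and 4 higher at all 3 later ages (30.3% and 32.4% of all genes tested), with a median of -0.41. Mcpt1l1, a chymase-like mast cell protease, had 2988, 252, 328 and 444 at 4, 10, 18 and 24 months, a difference of -3.17 ± 0.35 (SE, adjusted p = 0.0303). Mast cell chymases are a family of similar genes, and the probe sets may share signal. Tpsab1, a tryptase, was under the floor at every later age with 61.0, 74.6 and 39.2 and had 551 at 4 months, at least 5.51-fold lower (adjusted p = 0.0465). Cpa3, carboxypeptidase A3, had 2333, 679, 798 and 599 (adjusted p = 0.0303). Mcpt9, another protease of the family, had 1128, 777 and 1717 at the later ages and 460.0 at 4 months (adjusted p = 0.167). The other members higher at all 3 later ages were Ms4a2, Hdc and Gata2, none of them 2-fold at every age.

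Fat cell genes were partly higher. Of 11 tested of 13 on the array, 4 were 2-fold higher at all later ages (2.18% of all genes tested were). By any amount 7 were higher (32.4%), and limma called 0 (1502 genes of the array had an unadjusted p under 0.05). Fabp4, the fatty acid binding protein of fat cells, had 766, 1565, 2195 and 2552 at 4, 10, 18 and 24 months (adjusted p = 0.0614), and Dgat2, which makes triglyceride, had 578, 1162, 1786 and 1700.2 (adjusted p = 0.0614). Pparg, the transcription factor of fat cell formation, had 259, 429 and 284 at the later ages against 120.3 at 4 months (adjusted p = 0.168). Lpl, lipoprotein lipase, had 1010.4, 634, 1066 and 1014 and Fasn, fatty acid synthase, 635, 318, 435 and 502, so these were not higher together with the rest.

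Skeletal muscle genes, listed as markers of another tissue, were higher at the later ages. Their summed signal over 26 genes was 19905, 20833 and 16811 at 10, 18 and 24 months and 10099 at 4 months. The same sum ran from 3109.5 to 4173.8 in hypothalamus, the lowest tissue, and from 26036 to 48890 in liver, the highest. Some members are therefore not specific to muscle, and the sum does not measure muscle RNA alone. Of 22 tested, 11 were 2-fold higher at all later ages (2.18% of all genes tested) and 18 by any amount (32.4%). Limma called 7 of the 22 higher, and the median was 1.31. Acta1, skeletal actin, had 2684, 2909 and 1896 at the later ages against 628 at 4 months (adjusted p = 0.034), and Actn3, the alpha-actinin of fast fibres, 648, 592 and 453 at the later ages against 99.9 at 4 months (adjusted p = 0.034). Myh1, a fast myosin heavy chain, had 992, 978 and 1619.6 at the later ages against 1933 at 4 months (adjusted p = 0.307), but its 5 probe sets disagreed and 1 of them was higher at all later ages. The part of muscle RNA in the other results was not tested. Liver genes summed to 1922, 4592 and 5579.9 at 10, 18 and 24 months and 7167 at 4 months, and Alb, albumin, had 3530.5, 333, 987 and 2548 at the 4 ages.

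**Figure D3:**
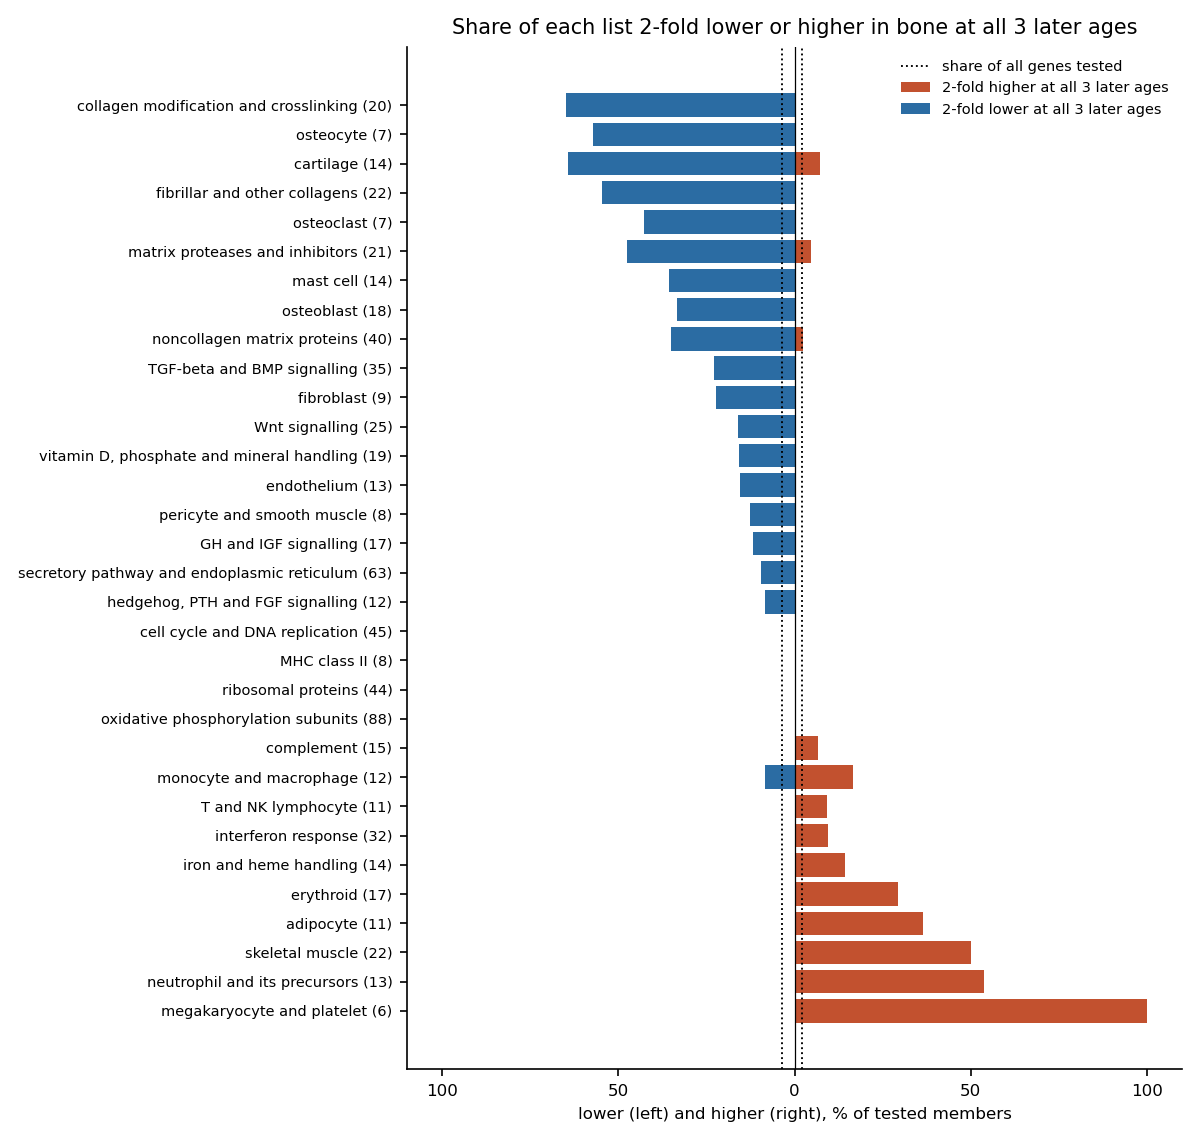
Percent of the tested members of each gene list (number in parentheses) that were at least 2-fold lower (left, blue) or higher (right, red) in bone at all 3 later ages than at 4 months, with the share of all genes tested dotted (3.69% lower, 2.18% higher). Collagen modification, cartilage, osteocyte and collagen lists lay far to the left, and megakaryocyte, neutrophil and skeletal muscle lists to the right.

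Other vessel and immune lists showed less. Of 13 endothelial genes tested of 15 on the array, 2 were 2-fold lower at all later ages, against 3.69% of all genes tested. The first was Emcn, endomucin, with 1213, 563, 434 and 331 at 4, 10, 18 and 24 months (adjusted p = 0.0801). The other was Plvap, which forms the diaphragms of fenestrated vessels, with 509, 177, 119 and 84.3 (adjusted p = 0.0916). Pecam1, a general endothelial adhesion molecule, had 407, 174, 245 and 288, and Vwf, von Willebrand factor, which platelets also carry, 439, 717, 662 and 1177. Of 32 interferon-induced genes, 3 were 2-fold higher at all later ages (5 without the 18-month array), against 2.18% of all genes tested. By any amount 22 were higher, against 32.4% of all genes tested. Ifi27l2b, of unclear function, was nearly constant among the later ages with 2755, 2837 and 2830.3, against 604 at 4 months, a difference of 2.22 ± 0.16 (SE, adjusted p = 0.0285). Irf7, the regulator of type I interferon genes, had 6262, 4299.7 and 4691 at the later ages against 1974 at 4 months (adjusted p = 0.0558).

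The later ages were also compared with each other. Of the 313 genes that were 2-fold lower, 105 were lower at 18 than at 10 months and lower again at 24. Of the 313, 169 were farthest from 4 months at 24 months, 101 at 18 and 43 at 10. Over all genes tested, 9.46% ran down in this way from 10 to 24 months. Of the 185 genes that were 2-fold higher, 32 were higher at each later age than at the age before it, against 9.43% of all genes tested. Farthest from 4 months were 89 of the 185 at 24 months, 47 at 18 and 49 at 10. Which age was farthest was not counted over all genes tested. The cartilage median was lower at each age, as given above. These orders rest on 1 array per age and were not tested.

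Whether the difference between later ages and 4 months was larger in bone than elsewhere was tested across all 24 arrays, with the difference in bone set against the mean of the same difference in the other 5 tissues. Of 9244 genes tested, 369 (3.99%) had a lower and 189 (2.04%) a higher difference in bone by limma at an adjusted p under 0.05. In the other tissues, counted alone, genes 2-fold higher at all 3 later ages than at 4 months numbered 19 in hypothalamus, 16 in kidney, 64 in liver, 18 in pituitary and 61 in spleen lymphocyte. Those 2-fold lower numbered 39, 9, 22, 12 and 36 in the same tissues. Over the 8488 genes tested in bone, the median spread (SD of log2 signals) among the 3 later arrays was 0.25 in bone. It was 0.17 to 0.26 over the other tissues. The genes were chosen by their bone signal, and those at the floor elsewhere have no spread there, so the tissues are not compared on equal terms.

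Cartilage and matrix genes were among the lowest in this test. The difference in bone minus that elsewhere was -4.02 ± 0.82 for Col10a1 (SE, adjusted p = 0.00492), -3.84 ± 0.69 for Col9a1 (adjusted p = 0.00201) and -3.64 ± 0.54 for Hapln1 (adjusted p = 0.000397). For Phex it was -3.43 ± 0.30 (adjusted p = 1.13e-06) and for Timp1 -3.57 ± 0.40 (adjusted p = 2.06e-05). Phex and Col9a1 averaged 21.8 and 29.9 over the other tissues, under the floor, so their differences here are those of bone alone. Signals set to the floor have no spread, which can lower the SE and adjusted p of such genes. Within bone the SE of Phex was 0.43 and that of Col9a1 1.05. At the other end stood Itgam with 3.31 ± 0.26 (adjusted p = 4.37e-07) and Lilrb2 with 2.83 ± 0.23 (adjusted p = 7.29e-07). They averaged 63.2 and 32.6 over the other tissues, also under the floor, so the same limit applies to them. For type I collagen the test was not passed. Col1a1 had in the other tissues a mean log2 difference of -0.67, and its difference in bone minus theirs was 0.11 ± 0.34 (adjusted p = 0.919). By list, 14 of 20 collagen modification genes, 10 of 23 collagens, 9 of 14 cartilage and 4 of 7 osteocyte genes were lower in bone by this test. Higher in bone by the same test were 11 of 22 skeletal muscle, 5 of 6 megakaryocyte, 5 of 13 neutrophil and 4 of 17 erythroid genes.

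**Figure D4:**
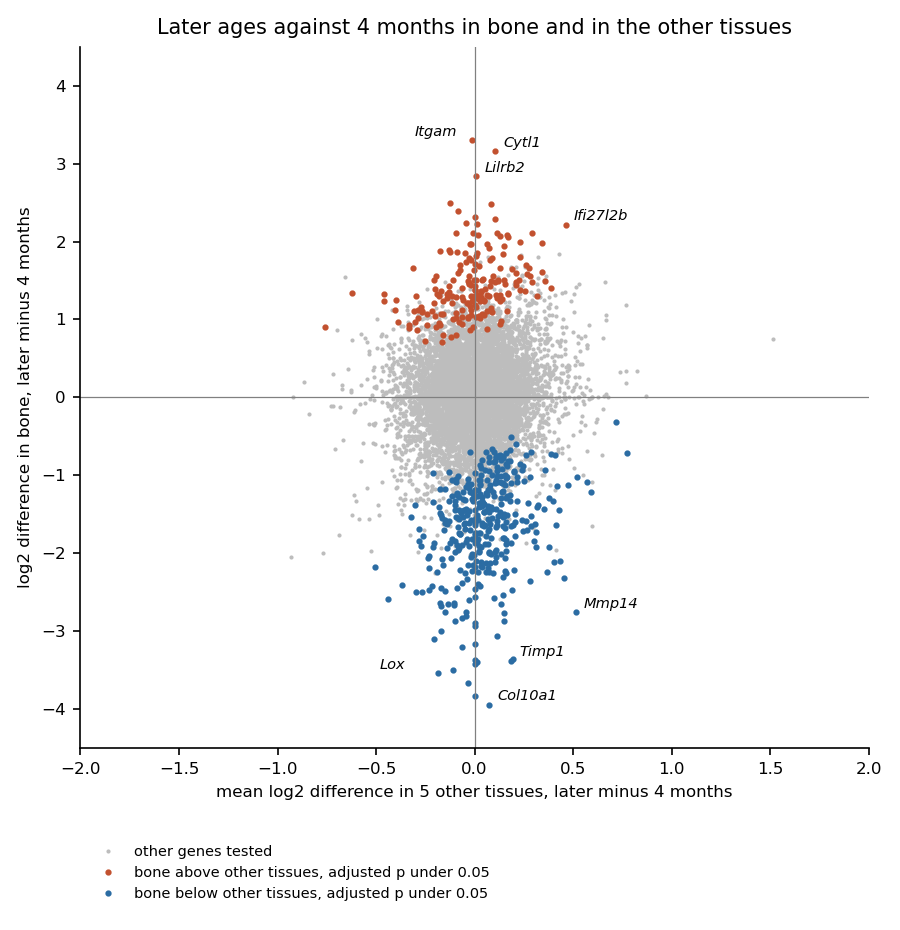
Mean log2 difference (later ages minus 4 months) in bone (vertical axis) against that over the 5 other tissues (horizontal axis) for 9244 genes, 1 point each. The 369 genes lower in bone than elsewhere by limma (adjusted p under 0.05) are blue and the 189 higher are red. The horizontal axis is an average over 5 tissues and spans a narrower range than the vertical one.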

How the data were processed

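The deposited values were MAS5.0 signals, a linear intensity per probe set, which the authors scaled on each Affymetrix RAE230A array to a target of 500 (the mean without the lowest and highest 2% of probe sets was 500 in every column). No source used here names the MAS5.0 version. RNA of 10 rats was pooled per array, so the number of arrays limits the precision. Of 15923 probe sets, 12789 had 1 gene symbol in the platform annotation, 312 several and 2771 none, controls left out. Each of 10412 genes was represented by the probe set at 100 or more on the most arrays. Signals under 100 were set to 100 before log2.

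The 3 later bone arrays were set against the 4-month array with limma 3.58.1 in R 4.3.3 (lmFit and eBayes with a trend, 2 residual degrees of freedom, the 4-month array assumed to vary like the later ones). The second fit, over all 24 arrays, had 12. Calls used a Benjamini-Hochberg adjusted p under 0.05, and the fits were tested on simulated data. Named genes were the 12 highest and lowest by the smallest difference, the first 3 and up to 4 extreme members of each list in each direction, and the 6 extremes of bone minus other tissues. The members and gene lists were chosen with earlier results of these data known. Alternatives changed the floor, scaling, probe set rule, filter, fold limit and variance model, or left out an array. The S6 kinase genes that the symbol pattern for ribosomal proteins also matched were left out after the data were seen. Protein sequences were not used here.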

Additional observations from a re-analysis of the deposited data

Results flagged for a closer look

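The later ages differed from 4 months in bone by another amount than in the other tissues for many genes, as tested by limma across all 24 arrays. The difference was higher in bone for 189 genes and lower for 369 at an adjusted p under 0.05. The genes farthest from the other tissues are given with their log2 difference in bone minus that elsewhere. At the lower end were Col10a1 (-4.02), Col9a1 (-3.84), Hapln1 (-3.64), Timp1 (-3.57), S1pr3 (-3.55) and Phex (-3.43). At the upper end were Itgam (3.31), Cytl1 (3.05), Lilrb2 (2.83), Degs2 (2.62), Pglyrp1 (2.48) and Actn3 (2.40). For all 12 the mean difference in the other tissues lay between -0.12 and 0.19 on the log2 scale. For genes under the floor of 100 there, such as Phex and Col9a1, this follows from the floor.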

How the results depend on the processing

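The limma counts in bone depended on the processing, with 87 genes higher and 91 lower as reported. The counts of higher and lower genes were 271 and 283 with a floor of 50, 29 and 242 with a floor of 200, and 264 and 301 on log2(signal + 50). They were 190 and 137 after quantile normalization and 1 and 9 with each array centred on its median. Without a filter they were 15 and 156, and at a mean signal of at least 200 they were 281 and 311. A robust variance model gave 271 and 279, and the spread of all 24 arrays 291 and 461. The mean over probe sets gave 0 and 0 (1462 genes at an unadjusted p under 0.05), and limma without a trend 0 and 0 (1345). With 1 later array left out (1 residual degree of freedom), the lowest and highest counts were 0 and 0. The causes were not tested. Counts of 2-fold genes stayed within 1.5 times except where the limit itself changed, to 589 higher and 683 lower at 1.5-fold and 34 and 107 at 3-fold. For bone minus other tissues, the higher count was 119 with a floor of 50 and 362 with a floor of 200, and all other alternatives stayed within 1.5 times of 189 and 369. Signs of log2 differences turned for Col2a1 with a floor of 200 (0.0562), Hbb after quantile normalization (-0.109), Tgfb1 with median centring (-0.0207), and Pth1r on the mean over probe sets (-1.18) and its brightest bone probe set (-2.87). With 1 later array left out, values ran between -0.1662 and 0.1245 for Col2a1 (positive without 18 months), -0.0409 and 0.0769 for Tgfb1 (negative without 24 months) and -0.3338 and 0.0408 for Lpl (positive without 10 months). Because each age group of rats gave all its tissues, age among the later arrays was also added as a term to bone minus other tissues, which gave 162 genes higher and 328 lower. Within bone, no paired analysis was possible because each age has 1 array.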

Other observations

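Some lists had medians near that of all genes tested. Of 44 ribosomal protein genes and 88 oxidative phosphorylation genes tested, 0 were 2-fold lower or higher at all 3 later ages and limma called 0 (1502 genes of the array had an unadjusted p under 0.05), with medians of 0.09 and -0.12. By any amount at all 3 later ages, 40 of the 88 oxidative phosphorylation genes were lower and 11 higher. Of the 44 ribosomal protein genes 5 were lower and 14 higher. The shares over all genes tested were 30.3% lower and 32.4% higher. The 8 genes of MHC class II had a median of -0.03, and Cd74, their invariant chain, had signals of 6885, 6546, 6509.5 and 5956 at 4, 10, 18 and 24 months. All 3 B lymphocyte genes tested were lower at every later age (30.3% of all genes tested were), 1 of them 2-fold (3.69% of all genes tested). Limma called 0 of them (1502 genes of the array had an unadjusted p under 0.05). The 2-fold gene was Ebf1, a transcription factor of B cell precursors, with 963, 452, 353 and 271 (limma adjusted p = 0.0919). Of the 11 T and NK lymphocyte genes tested, 1 was 2-fold higher at all later ages, against 2.18% of all genes tested. It was Nkg7, a granule membrane protein, with 3268, 3268 and 3663 at the later ages against 971 at 4 months (adjusted p = 0.0303).

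Of 14 genes of iron and heme handling, 12 were higher at all 3 later ages, against 32.4% of all genes tested. At least 2-fold higher were 2, against 2.18% of all genes tested. Hp, haptoglobin, which binds free hemoglobin, had 1692, 3440.3, 3995 and 6603 at 4, 10, 18 and 24 months (adjusted p = 0.106), and Hmox1, which breaks down heme, 990.4, 2327, 1926 and 1692 (adjusted p = 0.0765). Prg2, the major basic protein of eosinophils, had 16703, 15579.6 and 21073 at the later ages against 6204 at 4 months (adjusted p = 0.0645). C1s, a protease of the complement cascade, had 558, 689 and 733 at the later ages against 232 at 4 months (adjusted p = 0.0552). Degs2, a sphingolipid desaturase and hydroxylase, had 1201, 1161 and 1454 at the later ages against 225 at 4 months (adjusted p = 0.0303).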
